A study of Mus musculus with 24 samples.

Results

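Icam1, Vcam1, Mcam, Cd48, Itgae and L1cam are cell-surface adhesion molecules that were measured in mouse retina on a microarray devoted to genes of glycan biology. They were taken as every probe set whose transcript identifier mapped to one of these 6 gene symbols, which gave 1 probe set per gene, or 6 of the 909 genes named among the 1246 probe sets. The choice of these genes used their difference between genotypes, so those differences are given as descriptions without a test. The tests on them concern age within a genotype, the change of the genotype difference with age, and the scatter of arrays within a group. These tests use the same arrays as the choice. If differences at single ages weighed in the choice, the p-values for age could be too small, which was not tested.

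The mutant retinas came from mice labelled RP mutant and P347S+, which carry a rhodopsin transgene with the P347S substitution. The normal retinas came from mice labelled normal and P347S-. Each genotype was sampled at 4 ages, from 1 to 4 months, with 3 arrays per age, giving 8 groups and 24 arrays of total retinal RNA. Per the series' design text, rod loss in this line is slow, being barely visible at the youngest age and extensive at the oldest, and the 4 ages were meant to separate its early, middle and late stages. The labels give sex as unknown, and the sources used here give neither strain, the transgene's promoter, nor whether each array held 1 animal or a pool. The p-values below therefore measure the spread between these arrays, which may be technical in part.

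Adhesion molecules of the immunoglobulin superfamily and integrins hold cells to each other and to matrix. On endothelium and glia, Icam1 and Vcam1 are displayed in response to inflammatory cytokines, and leukocytes bind them through the beta2 and alpha4 integrins. In the retina, Icam1 is best known from leukocyte sticking to vessels in inflammation and diabetes, whereas L1cam is an adhesion molecule of axons. Because whole retina was assayed, fewer cells of a type and less RNA per cell cannot be told apart in any value below.

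The array values are log2 RMA signals (RMA is a background correction, normalisation and summary of an Affymetrix probe set), so a difference of 1 is a doubling. Signals ran from 1.90 to 14.17, and the 24 array medians from 5.15 to 5.34. Of 11 genes listed as rod markers to check the tissue, Gnb1 alone was among the named probe sets, and none of the 9 ganglion cell and axon markers was. Lens RNA differed between arrays: log2 Grifin, a lens galectin, read 11.33 in normal 2-month replicate 2, 11.29 in mutant 2-month replicate 2 and 10.16 in normal 4-month replicate 1, against 5.69 to 8.77 in the other arrays. Genotype differences of the members that moved by over 1.5 times without these 3 arrays are given both ways.

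Upstream sequence is shown first for Icam1, Cd48 and Mcam, whose mean differences between genotypes were larger than that of L1cam, the other member with a RefSeq promoter entry. It is shown because Icam1 is a classic cytokine-responsive gene whose control elements lie close to its start. Each window holds the 250 bases before the RefSeq start on the plus strand of GRCm38.p6, and 4 of the 6 members had an entry. The windows are chr9:21015690-21015939 for Icam1, chr1:171681742-171681991 for Cd48 and chr9:44134408-44134657 for Mcam. Capitals mark matches to a kB element, GGAAATTCC, and to a STAT element, TTCNNNGAA, both searched on both strands. The kB letters were fixed at every base, so other forms of a kB element were not searched for.
Icam1: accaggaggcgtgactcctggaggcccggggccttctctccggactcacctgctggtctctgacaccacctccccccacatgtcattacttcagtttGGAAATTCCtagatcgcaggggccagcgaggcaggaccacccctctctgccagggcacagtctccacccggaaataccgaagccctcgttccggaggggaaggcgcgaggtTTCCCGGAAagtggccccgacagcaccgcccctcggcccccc
Cd48: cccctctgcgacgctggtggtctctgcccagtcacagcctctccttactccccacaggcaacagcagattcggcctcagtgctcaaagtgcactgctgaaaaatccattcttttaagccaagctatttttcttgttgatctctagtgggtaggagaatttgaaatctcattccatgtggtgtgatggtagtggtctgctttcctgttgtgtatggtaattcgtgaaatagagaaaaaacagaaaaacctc
Mcam: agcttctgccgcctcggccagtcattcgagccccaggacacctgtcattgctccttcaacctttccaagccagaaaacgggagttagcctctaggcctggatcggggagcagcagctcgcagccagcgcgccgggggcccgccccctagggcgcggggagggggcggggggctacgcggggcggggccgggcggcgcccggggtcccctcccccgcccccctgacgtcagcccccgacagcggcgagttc
The Icam1 window held the kB letters at bases 153 to 145 before the start and the STAT letters, as TTCCCGGAA, at bases 42 to 34, and the matches did not overlap. The kB letters occurred in 0.2864% of 32817 RefSeq windows of this length and the STAT letters in 7.015%. These shares describe the letters and are no test of Icam1, since the kB letters may have been chosen for that gene. Neither set of letters was found in the Cd48 or Mcam window, nor in the 2 windows of L1cam, which are not printed. Whether these windows hold other forms of a kB element was not tested. GC content was 65.2% for Icam1, 46.0% for Cd48 and 73.6% for Mcam, against a median of 52.4% over all windows. A match describes letters and is not evidence of binding.

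Icam1 encodes the ligand of the leukocyte integrins LFA-1 and Mac-1. Its probe set was dim, with a mean log2 signal of 4.42 over all arrays and 36.3% of probe sets lower. At 1 month the normal arrays read 3.90, 3.89 and 4.05 and the mutant arrays 4.45, 4.33 and 4.52, in the order of replicates 1 to 3 as in every such sentence below. Log2 Icam1 at 2 months was 3.98, 3.90 and 4.16 in normal and 4.76, 4.70 and 4.18 in mutant retinas. The groups were apart at both ages, at 2 months by little, since mutant replicate 3 stood next to the highest normal array. Values at 3 months were 4.04, 3.77 and 3.99 against 4.92, 4.90 and 6.09, and at 4 months 3.82, 3.97 and 3.52 against 5.78, 5.10 and 5.26. All 12 mutant arrays thus lay above all 12 normal arrays, with the lowest mutant array at 4.18 and the highest normal array at 4.16. Mutant exceeded normal by 0.49, 0.54, 1.37 and 1.61 log2 units at 1, 2, 3 and 4 months (SE 0.23 each, 3 arrays against 3). At 3 months the difference was 0.97 without mutant replicate 3. The mean over ages was 1.00 ± 0.12 (SE), a 2.00-fold higher signal.

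Vcam1 encodes the endothelial ligand of the integrin VLA-4. It was brighter than Icam1 in rank, with a mean log2 signal of 6.88 and 67.7% of probe sets lower, although probe sets differ in response and the signals of different genes are not compared as amounts. Normal arrays read 6.58, 6.54 and 6.77 at 1 month, and mutant arrays 7.13, 7.09 and 7.35. The values at 2 months were 6.72, 6.26 and 6.48 in normal and 7.10, 7.32 and 6.79 in mutant retinas. Normal arrays at 3 months gave 6.73, 6.02 and 6.67 and mutant arrays 7.07, 7.26 and 7.54. The groups did not overlap at any of these ages. By 4 months the normal values were 6.22, 6.42 and 6.30 and the mutant values 7.77, 7.46 and 7.59, the widest gap of the 4 ages. The lowest mutant array, at 6.79, again stood just above the highest normal array, at 6.77. Mutant exceeded normal by 0.56, 0.58, 0.82 and 1.30 log2 units from 1 to 4 months (SE 0.17 each), with a mean of 0.81 ± 0.08 or 1.76-fold. Without the 3 arrays high in Grifin the difference at 2 months was 0.34, and without normal 3-month replicate 2, the lowest normal array, that at 3 months was 0.60.

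Separation of all 12 mutant from all 12 normal arrays, upward, was seen for 2 of the 6 members, Icam1 and Vcam1, and for 9 of the 1246 probe sets (0.722%). The members were chosen on this contrast, so the counts are a description. Age by age, the members whose 3 mutant arrays lay above the 3 normal arrays numbered 4 at 1 month (10.4% of all probe sets did so), 3 at 2 months (9.07%), 4 at 3 months (13.2%) and 5 at 4 months (17.1%). Icam1, Vcam1 and Cd48 did so at all 4 ages, as did 1.93% of probe sets. In the other direction, Itgae at 2 months was the only member whose mutant arrays all lay below the normal arrays (8.35% of probe sets).

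**Figure D1:**
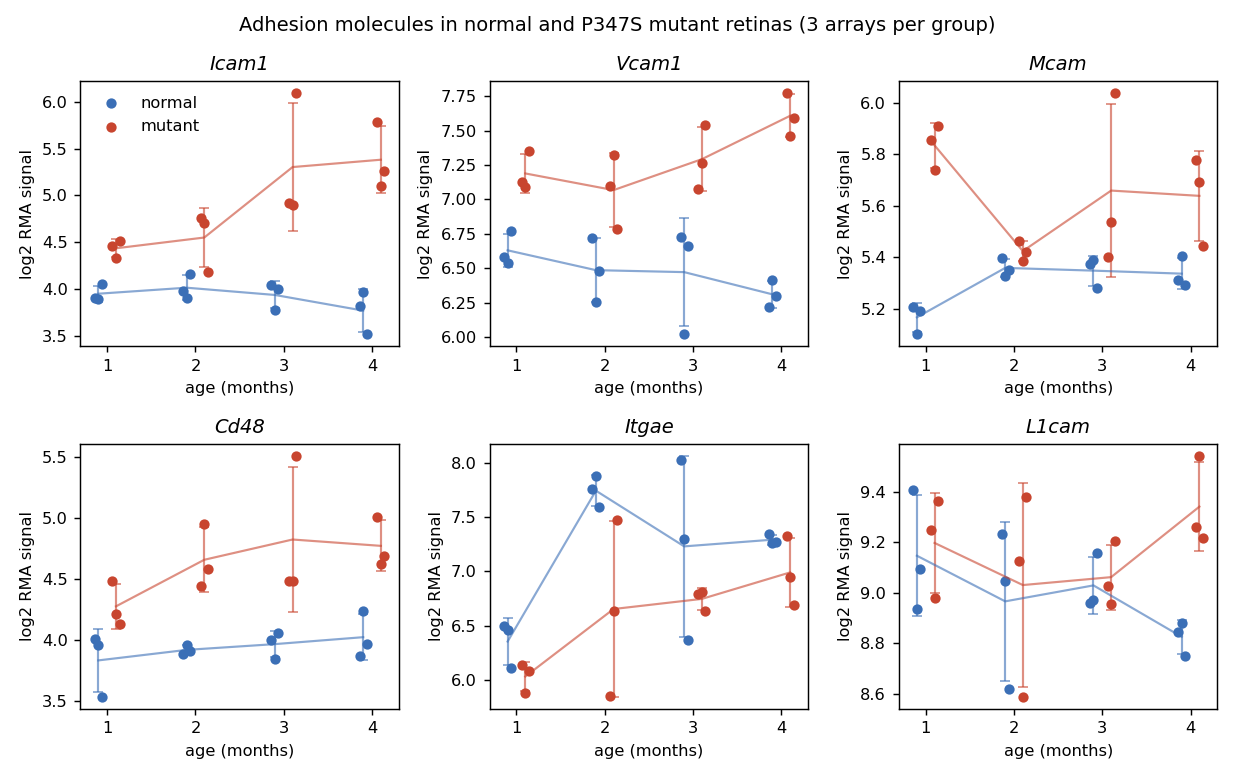
Log2 RMA signal (vertical axis) of the 6 adhesion genes in each of the 24 arrays, by age in months (horizontal axis); points are arrays, lines join the means of 3 arrays and bars are their SD. The 12 mutant arrays of Icam1 and of Vcam1 sit above the 12 normal arrays, with 4.18 against 4.16 and 6.79 against 6.77 at the closest approach, while L1cam overlaps at 1, 2 and 3 months.

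Cd48, a GPI-anchored member of the signalling lymphocyte activation family that binds Cd2 and Cd244a and is carried by most blood leukocytes, had a mean log2 signal of 4.28. It read 4.01, 3.96 and 3.54 in normal and 4.48, 4.21 and 4.13 in mutant retinas at 1 month. Values of 3.89, 3.96 and 3.91 at 2 months stood against 4.44, 4.95 and 4.58. At 3 months they were 4.00, 3.85 and 4.06 against 4.48, 4.48 and 5.51. The oldest retinas gave 3.87, 4.24 and 3.97 in normal and 5.01, 4.62 and 4.69 in mutant arrays. No age overlapped, and over all ages 10 of 12 mutant arrays exceeded every normal array. The differences were 0.44, 0.74, 0.85 and 0.75 (SE 0.21 each) and their mean 0.69 ± 0.10, a 1.62-fold higher signal. At 1 month the difference was 1.36-fold, and it was 0.29 log2 units without normal replicate 3. The difference at 3 months was 0.51 without mutant replicate 3.

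Mcam (CD146) is an adhesion molecule of endothelium and pericytes. Its probe set carries the suffix that Affymetrix gives to sets shared by transcripts of a gene, and its mean log2 signal was 5.47. The pattern over age was unlike that of the genes above. Normal arrays at 1 month read 5.21, 5.10 and 5.19 and mutant arrays 5.86, 5.74 and 5.91, a difference of 0.67. At 2 months the difference was 0.07, from 5.40, 5.33 and 5.35 against 5.46, 5.38 and 5.42, and it was -0.0033 with log2 Grifin and Dcn as covariates. Later the groups read 5.37, 5.39 and 5.28 against 5.40, 5.54 and 6.04 at 3 months, a difference of 0.31, and 5.31, 5.40 and 5.29 against 5.78, 5.69 and 5.44 at 4 months, a difference of 0.30 (SE 0.11 each). The groups overlapped at 2 months and were apart at the other ages, though at 3 months only barely. The mean difference was 0.34 ± 0.06, and 10 of 12 mutant arrays exceeded every normal array. Without mutant 3-month replicate 3 the difference at that age was 0.12.

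Itgae, the alpha E integrin subunit (CD103) of lymphocytes and dendritic cells at epithelia, was the member with lower signal in mutant retinas. Normal arrays read 6.50, 6.46 and 6.11 at 1 month and mutant arrays 6.14, 5.88 and 6.08. The 2-month values were 7.75, 7.88 and 7.59 in normal against 5.86, 6.64 and 7.47 in mutant arrays. All 3 normal arrays were above the mutant arrays at that age, and the mutant arrays were scattered over more than a log2 unit. Values of 8.03, 7.30 and 6.36 in normal and 6.79, 6.81 and 6.63 in mutant arrays at 3 months overlapped, as did 7.34, 7.26 and 7.27 against 7.33, 6.95 and 6.69 at 4 months. The differences were -0.32, -1.09, -0.48 and -0.30 (SE 0.32 each), with a mean of -0.55 ± 0.16. Single arrays moved them much. At 2 months the difference was -0.69 or -1.50 without mutant replicate 1 or 3. At 3 months it was -0.08 or -0.92 without normal replicate 1 or 3. At 4 months it was -0.47 or -0.15 without mutant replicate 1 or 3. Quantile normalisation gave -0.48 at 4 months. Its within-group SD of 0.44 exceeded that of the other 5 members, which ran from 0.14 to 0.32. In both genotypes the 4-month mean was higher than the 1-month mean, by 0.94 in normal and 0.96 in mutant retinas.

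L1cam, an adhesion molecule of growing and unmyelinated axons, was the brightest of the 6 probe sets, with a mean log2 signal of 9.07. Its arrays read 9.41, 8.94 and 9.10 in normal and 9.25, 8.98 and 9.36 in mutant retinas at 1 month. They read 9.23, 9.05 and 8.62 against 9.12, 8.59 and 9.38 at 2 months. Values of 8.96, 8.97 and 9.16 were set against 9.03, 8.95 and 9.20 at 3 months. The genotypes overlapped at these 3 ages, with differences of 0.05, 0.06 and 0.03 (SE 0.17 each) each of which changed sign under some of the alternatives. At 2 months the difference was 0.33 without the 3 arrays high in Grifin, -0.11 without mutant replicate 3 and 0.29 without mutant replicate 2. Leaving out single arrays gave -0.05 to 0.18 at 1 month and -0.04 to 0.10 at 3 months. At 4 months the normal arrays gave 8.85, 8.88 and 8.75 and the mutant arrays 9.26, 9.54 and 9.22, which did not overlap and differed by 0.51. The mean difference over ages was 0.17 ± 0.09, and its 95% confidence interval ran from -0.01 to 0.35.

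**Figure D2:**
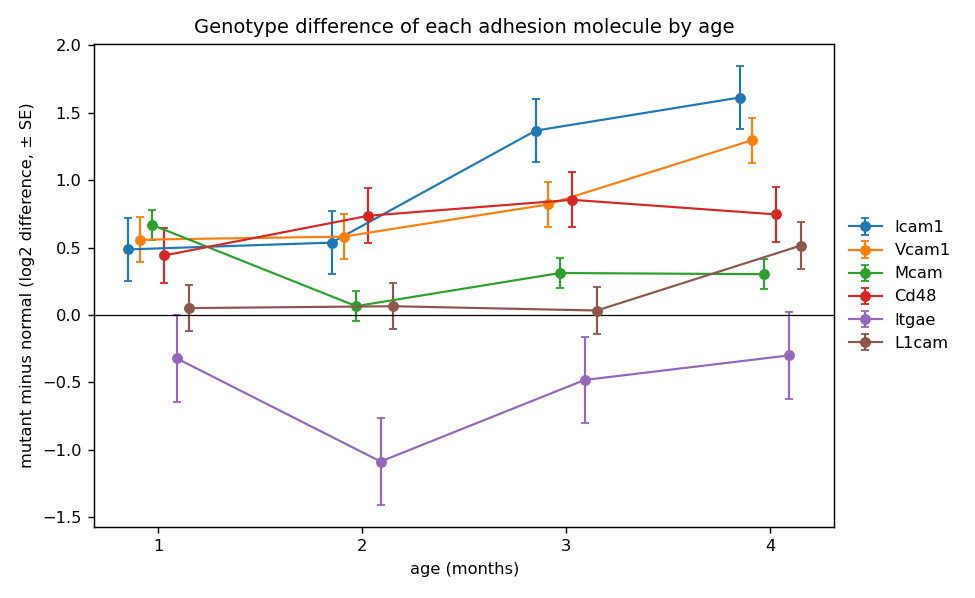
Difference in log2 RMA signal, mutant minus normal (vertical axis), against age in months (horizontal axis) for each of the 6 genes; points are the fitted differences of 3 arrays against 3 and bars are ± 1 SE. Icam1 goes from 0.49 at 1 month to 1.61 at 4 months and Vcam1 from 0.56 to 1.30, Cd48 stays between 0.44 and 0.85, and Mcam is at its highest, 0.67, at 1 month.

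Age within a genotype was tested with limma, using moderated F tests over the 4 ages with Benjamini-Hochberg adjustment over all 1246 probe sets. In mutant retinas 1 of the 6 members, Icam1, passed (F = 8.88, limma adjusted p = 0.0129), as did 11.1% of all probe sets. The test used the same mutant arrays as the choice of Icam1. Its 4 group means spanned 0.95 log2 units in mutant and 0.24 in normal retinas. Icam1 at 4 months was higher than at 1 month by 0.95 ± 0.23 in mutant retinas (limma adjusted p = 0.0289), a comparison that 2.65% of probe sets passed. All 3 of the 4-month arrays lay above all 3 of the 1-month arrays. The F test stayed past the threshold without any single array (limma adjusted p from 0.00310 to 0.0334). With log2 Grifin and Dcn as covariates its limma adjusted p was 0.0892. The comparison of 4 with 1 month lost its call without mutant 1-month replicate 1, 2 or 3 (limma adjusted p 0.0929, 0.136 and 0.0768), without mutant 4-month replicate 1 (0.163) and with the covariates (0.0642). The difference itself was then 0.96, 0.90, 0.99, 0.75 and 0.93 in the same order.

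The other members did not pass the F test in mutant retinas, with limma adjusted p of 0.0967 for Mcam, 0.142 for Vcam1, 0.189 for Itgae, 0.230 for Cd48 and 0.549 for L1cam. Mcam passed without mutant 3-month replicate 1 (limma adjusted p = 0.0345) or replicate 3 (0.00718), and after a further quantile normalisation (0.00949). From 1 to 4 months mutant retinas differed by 0.42 ± 0.17 for Vcam1 (limma adjusted p = 0.240), 0.49 ± 0.21 for Cd48 (0.254), 0.96 ± 0.32 for Itgae (0.125), -0.20 ± 0.11 for Mcam (0.458) and 0.14 ± 0.17 for L1cam (0.824).

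Normal retinas gave no member past the F test for age with limma, where 0.722% of probe sets passed. At an unadjusted p under 0.05, 1 member, Itgae, met the threshold, as did 14.9% of probe sets. Itgae in normal retinas had group means that spanned 1.39 log2 units (limma adjusted p = 0.106), with the lowest mean at 1 month. It passed without normal 3-month replicate 1 (limma adjusted p = 0.0438) or replicate 3 (0.0371). Icam1, by contrast, had a limma adjusted p of 0.918 and Cd48 of 0.941. The comparison of 4 with 1 month in normal retinas was passed by none of the 1246 probe sets, and 7.38% met an unadjusted p under 0.05. The normal change over these ages was -0.18 ± 0.23 for Icam1, with a 95% confidence interval from -0.67 to 0.31, and -0.32 ± 0.17 for Vcam1.

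Whether the genotype difference itself changed with age was tested by the interaction. By limma's interaction F test 0 of the 6 members passed, and 0.321% of probe sets did. At an unadjusted p under 0.05 the members numbered 3 (Icam1, Mcam and Vcam1), and 14.4% of probe sets met that level. The limma adjusted p was 0.148 for Icam1, 0.219 for Mcam and 0.260 for Vcam1. The Icam1 difference was larger at 4 months than at 1 month by 1.13 ± 0.33 log2 units (95% confidence interval 0.44 to 1.82, limma adjusted p = 0.108), in a comparison that 0.241% of probe sets passed. That of Vcam1 was larger by 0.74 ± 0.24 (0.24 to 1.24, limma adjusted p = 0.157). For Mcam the change was -0.37 ± 0.16 (limma adjusted p = 0.385), for L1cam 0.46 ± 0.24 (0.495), for Cd48 0.30 ± 0.29 (0.849) and for Itgae 0.02 ± 0.45 (0.991). Without mutant 3-month replicate 3, Icam1 passed both tests (limma adjusted p 0.0389 for the F test and 0.0300 for 4 against 1 month) and Mcam the F test (0.0320). Mcam also passed the F test after quantile normalisation (0.0304).

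Mutant 3-month replicate 3 stood apart from its group in several members at the same time. It exceeded the next mutant array of that age by 1.18 log2 units for Icam1, 1.03 for Cd48, 0.50 for Mcam and 0.28 for Vcam1. The microglial genes Csf1r, Cx3cr1 and Adgre1 were also higher in it than in the next array, by 0.76, 0.56 and 0.67. L1cam in it exceeded the next array by 0.18, and Itgae differed from the higher of the other arrays by -0.18. Of all probe sets in this array, 99.7% deviated less from their group mean than Icam1 did. The share was 99.5% for Cd48, 95.6% for Mcam, 86.4% for Vcam1, 69.7% for L1cam and 61.9% for Itgae. For Csf1r, Adgre1 and Cx3cr1 it was 98.6%, 98.4% and 98.2%.

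Arrays of a group also differ from each other although genotype and age are the same, and these deviations were compared between members after the data had been seen. The spread of Icam1 within a group was itself uneven, with an SD of 0.09 to 0.23 in normal groups and 0.09 to 0.69 in mutant groups. Each array's deviation from its group mean was taken over all 24 arrays, for 21 pairings of the 6 members and the mean of 7 microglial markers, with 100000 permutations within groups. Icam1 and Vcam1 deviated together, with Pearson's r = 0.65 (permutation p = 0.00117, Benjamini-Hochberg adjusted 0.0246) and Spearman's rho = 0.74 (permutation p = 0.00083, adjusted 0.0174). An array with more Icam1 than its group-mates thus tended to have more Vcam1. The r was 0.63 without the 2 arrays farthest from the median of Icam1, 0.65 without mutant 3-month replicate 3, 0.67 without the Grifin-high arrays and 0.48 after quantile normalisation. Both values of a point come from the same array and share its RNA and its scaling. No other pairing passed after adjustment.

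Among those that did not pass, Icam1 and the microglial mean had r = 0.80 (permutation p = 0.0125, adjusted 0.131), and 0.52 without mutant 3-month replicate 3. Icam1 with Mcam had r = 0.76 and Icam1 with Cd48 r = 0.72 (adjusted permutation p of 0.157 for both), which were 0.38 and 0.34 without that array, so these relations rested largely on it. Vcam1 with the microglial mean had r = 0.44 (adjusted permutation p = 0.173).

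**Figure D3:**
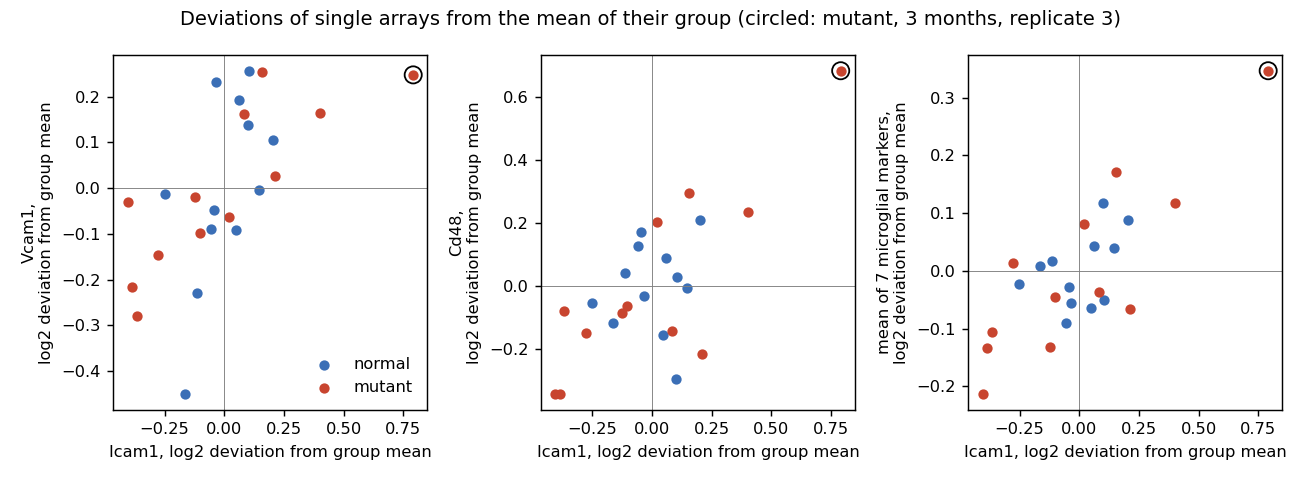
Deviation of each of the 24 arrays from its group mean, in log2 units, with Icam1 on the horizontal axis and Vcam1, Cd48 or the mean of 7 microglial markers on the vertical axis; points are arrays, and mutant 3-month replicate 3 is circled. Icam1 and Vcam1 deviate together with r = 0.65 and keep r = 0.65 without the circled array, whereas Icam1 and Cd48 go from r = 0.72 to 0.34.

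By group means, the genes whose profile over the 8 groups lay nearest to that of a member were named by the root mean square distance between centred means, a description over 8 groups. The members' own root mean square spread was 0.59 for Icam1, 0.44 for Vcam1, 0.38 for Cd48, 0.21 for Mcam, 0.51 for Itgae and 0.15 for L1cam. Distances depend on this spread, so they are not compared between members. Nearest to Icam1 were Csf1r, the receptor of colony-stimulating factor 1 on microglia, at 0.19 log2 units, the hyaluronan receptor Cd44 at 0.22 and the TGF-beta receptor Tgfbr2 at 0.22. Vcam1 had the galectin Lgals9 at 0.14, the PDGF receptor Pdgfra at 0.15 and the C-type lectin Clec2d at 0.15. Cd48 was followed by the chemokine Ccl12 at 0.11, the sulfatase Sulf1 at 0.12 and the macrophage receptor Adgre1 at 0.12. For Mcam these were Ugt1a6b and Siglech at 0.10 each, from probe sets that may detect related sequences, and Lamp2 at 0.11. Nearest to the profile of Itgae were Papss2 at 0.32, Lgals4 at 0.34 and Chst3 at 0.34. L1cam varied little, and Kit at 0.06, Fgfr1 (a probe set of the same kind) at 0.08 and Galnt16 at 0.08 were nearest to it.

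Related adhesion genes give the setting. Over all ages, limma called 22.6% of the 1246 probe sets between genotypes, 13.8% higher and 8.83% lower in mutant retinas, with a median difference of -0.03. Of these calls 61.0% were higher, a share that was 50.6% after quantile normalisation and 70.3% after median centring. Of 33 measured genes listed as other immunoglobulin-type adhesion molecules, selectins and their ligands, binding partners, and inducing cytokines with their receptors, 6 were higher and 0 lower (4 were lower at an unadjusted p under 0.05 by limma), with a median difference of 0.02. No other integrin subunit of 25 listed and no cadherin of 8 was among the named probe sets, so the leukocyte integrins that bind Icam1 and Vcam1 were not analysed here.

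None of the 6 measured relatives with immunoglobulin domains passed with limma in either direction, and 1 was lower at an unadjusted p under 0.05. The endothelial genes Icam2 and Pecam1 differed by 0.06 and -0.05 log2 units between genotypes, and the basigin gene Bsg by 0.06. Madcam1, the mucosal addressin, differed by -0.15 ± 0.05 (limma adjusted p = 0.0565). It passed after quantile normalisation (0.0337), with the replicate block (0.0417) and without any of 5 arrays, namely normal 2-month replicate 2 (0.0482), normal 3-month replicate 3 (0.0192), mutant 1-month replicate 2 (0.0300), mutant 2-month replicate 3 (0.0344) and mutant 3-month replicate 1 (0.0184). The median of the 6 was -0.01.

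Of 6 selectins and selectin ligands, 2 were higher in mutant retinas, with a list median of -0.02. Glycam1, which encodes a mucin bound by L-selectin, rose by 2.21 ± 0.27 log2 units (limma adjusted p = 4.19e-06), from a probe set that may detect related sequences. Cd34, a sialomucin of endothelium and progenitor cells, rose by 0.32 ± 0.07 (limma adjusted p = 0.00282). Of 6 binding partners 1 was higher, Lgals9, by 0.71 ± 0.11 (limma adjusted p = 7.47e-05, again from a probe set of that kind). The mucin Muc1, at 0.21 (limma adjusted p = 0.0847), and the proteoglycan Ncan, at 0.15 (0.104), did not pass, and the list median was 0.13.

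Among 16 cytokines that induce Icam1 and Vcam1 and their receptors, 3 were higher and 0 lower by limma, with 2 lower at an unadjusted p under 0.05 and a median of 0.01. Il6st, the signalling receptor chain gp130, rose by 0.39 ± 0.07 (limma adjusted p = 0.000195) and Il1r1, the signalling receptor of interleukin 1, by 0.37 ± 0.08 (0.00139). Il1a, interleukin 1 alpha, rose by 0.15 ± 0.05 (limma adjusted p = 0.0348). Its probe set was dim, with a mean log2 signal of 3.62, below the 25th percentile of 3.83 over all probe sets. Other cytokines of the list were dimmer still, such as Ifng at 2.64 and Il6 at 2.40, so their lack of a call says little. The Il1a call was lost with the replicate block (limma adjusted p = 0.0926), without the Grifin-high arrays (0.147) and without any 1 of 12 arrays. These were normal 1-month replicate 3, normal 2-month replicates 1 and 2, normal 3-month replicate 2, normal 4-month replicates 1 and 3, mutant 1-month replicate 3, mutant 2-month replicate 2, mutant 3-month replicates 1 and 3, and mutant 4-month replicates 1 and 3, with limma adjusted p from 0.0501 to 0.0720. The interferon gamma receptor gene Ifngr1 differed by -0.14 (limma adjusted p = 0.0884).

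**Figure D4:**
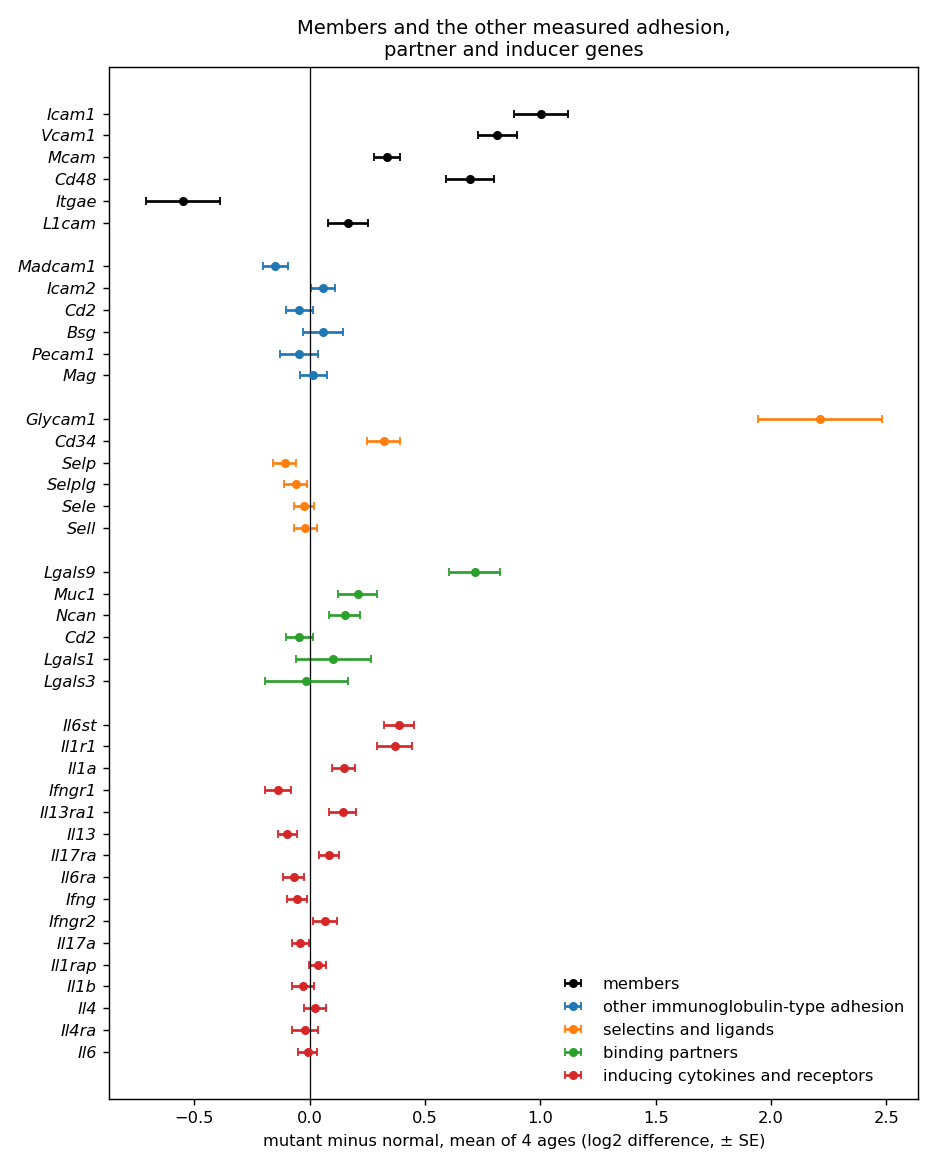
Mean difference over 4 ages in log2 RMA signal, mutant minus normal (horizontal axis), for the 6 adhesion genes and the measured genes of the related lists (vertical axis); points are limma estimates and bars are ± 1 SE. Icam1 at 1.00 and Vcam1 at 0.81 stand beside relatives near 0, such as Icam2 at 0.06 and Pecam1 at -0.05, and Glycam1 at 2.21 is farthest to the right.

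Cell type markers differed between lists in how they moved with genotype. Of 7 measured microglia and macrophage markers 5 were higher in mutant retinas, including Cx3cr1 by 0.94 ± 0.10 (from a probe set that may detect related sequences), Csf1r by 0.89 ± 0.09 and Adgre1 by 0.81 ± 0.10. Ccr2 and Mrc1, both dim at mean log2 signals of 2.80 and 3.26, each differed by -0.01. The summed level of the 7, as log2, ran from 8.12 to 8.47 in normal and from 8.76 to 9.71 in mutant arrays, with no overlap. It adds linear signals, so Cx3cr1 and Csf1r, the brightest at 7.48 and 7.23, weigh most in it. Of 3 Müller glia and astrocyte markers 2 were higher (Cd44 by 1.01 ± 0.25 and Fgf2 by 0.34), and their sums overlapped, at 8.68 to 10.42 against 9.26 to 10.61. The highest normal sums were 9.22 at 1 month and 9.12 at 3 months, but 10.42 at 2 months and 9.92 at 4 months. Cd44 was itself high in the Grifin-high arrays, at 8.69 in normal 2-month replicate 2, 8.19 in normal 4-month replicate 1 and 9.23 in mutant 2-month replicate 2. The part of lens RNA in this overlap was not tested. Endothelial and pericyte markers gave 1 higher of 7, Cd34, with sums of 7.65 to 7.97 against 7.66 to 8.18.

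Lymphocyte and NK cell markers were not higher: of 12 measured, 0 rose by limma (0 also at an unadjusted p under 0.05) and 1, Il2rb, fell by 0.17, with sums of 7.38 to 7.54 in normal and 7.24 to 7.61 in mutant arrays. Lens and connective tissue markers gave 0 of 4 in either direction by limma (0 also at an unadjusted p under 0.05), with sums of 6.94 to 11.45 against 7.11 to 11.34. Gnb1, the only measured gene of the rod marker list, was lower by limma (-0.21 ± 0.06, adjusted p = 0.0121). Its differences were -0.13, -0.28, -0.20 and -0.23 from 1 to 4 months (limma adjusted p = 0.924 for the change with age). Whether its signal here comes from rods alone was not tested. The part of these cell types in the values of the members was not tested.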

How the data were processed

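Total RNA from 24 mouse retina samples was hybridised to 1 Affymetrix array each, per the labels' protocols. The authors deposited log2 signals. RMA is named in the submitters' processing notes, with no version given in the sources used here. They were used as deposited. Of 1246 probe sets, 963 were matched by transcript accession to 909 RefSeq gene symbols (GRCm38.p6 tables), and 283 stayed unnamed.

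One limma fit (3.58.1, R 4.3.3; a mean per group, 16 residual degrees of freedom, default eBayes) gave all estimates, with Benjamini-Hochberg adjustment over 1246 probe sets and a threshold of 0.05; it was tested on simulated data. No depth applies to arrays, and 3 per group limit the precision. A listed gene with several probe sets was taken by the one with the highest mean signal.

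The members and gene lists were chosen with earlier results of these data known. Genes named are the members, up to 4 genes per list with the smallest p for the mean genotype difference, and 3 nearest profiles per member; others that are named, and the within-group correlations, were chosen after their values were seen. Alternatives were median centring, quantile normalisation, a filter on dim probe sets, an intensity trend, the replicate number within age as a block, Grifin-high arrays left out, Grifin and Dcn as covariates, and each array left out. Same-numbered arrays of the 2 genotypes correlated above 0.1 in 3 of 12 pairings, all at 2 months (0.33, 0.66 and 0.25). At the other ages the correlations ran from -0.03 to 0.08. The main fit did not pair arrays by number, since the labels state no pairing. A link between same-numbered arrays at 2 months thus remains possible.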

Additional observations from a re-analysis of the deposited data

Results flagged for a closer look

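Members and listed genes were flagged where the genotypes moved in opposite directions between 1 and 4 months without overlap. Without overlap means that, in each genotype, all 4-month arrays lay on 1 side of all 1-month arrays. By this rule 3 genes were flagged. How many of the 1246 probe sets met the rule was not counted, so the 3 are only a description. Means of other members also moved in opposite directions, but not without overlap in both genotypes. For Icam1 these changes were -0.18 in normal and 0.95 in mutant retinas, and its normal arrays overlapped. Vcam1 differed by -0.32 log2 units in normal and by 0.42 in mutant retinas, so that the mutant change exceeded the normal change by 0.74 ± 0.24 (SE; limma adjusted p = 0.157, and 0.260 for the F test over 4 ages). For Sele, the endothelial E-selectin, the changes were -0.12 and 0.18, a difference of 0.30 ± 0.12 (limma adjusted p = 0.317, F test 0.430). The Sele probe set was dim, with a mean log2 signal of 2.76, below the 25th percentile of 3.83 over all probe sets. For Cd22, a sialic acid-binding lectin of B cells, they were -0.08 and 0.16, a difference of 0.24 ± 0.12 (limma adjusted p = 0.485, F test 0.222). None of the 3 differences passed after adjustment over all probe sets.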

How the results depend on the processing

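The mean genotype difference of each member kept its direction in all 31 alternatives: 0.90 to 1.05 for Icam1, 0.73 to 0.85 for Vcam1, 0.29 to 0.37 for Mcam, 0.61 to 0.74 for Cd48, -0.66 to -0.45 for Itgae and 0.12 to 0.23 for L1cam. Counts of calls moved more, and the cause was not tested. Members past the F test for age in mutant retinas numbered 1, but 2 after quantile normalisation and 0 with the Grifin and Dcn covariates; those past 4 against 1 month in mutant retinas went from 1 to 0 with the covariates, and those past the interaction F test from 0 to 1 after quantile normalisation. Leaving out single arrays gave 0 to 1 members for age in normal retinas, 1 to 2 for age in mutant retinas, 0 to 2 for the interaction F test, 0 to 1 for 4 against 1 month in mutant retinas and 0 to 1 for its interaction. Probe sets past the F test in normal retinas numbered 9, with 20 after median centring, 3 without the Grifin-high arrays, 0 with the covariates and 1 to 51 without single arrays. In mutant retinas 138 became 74 without the Grifin-high arrays, 51 with the covariates and 86 to 156 without single arrays. For the interaction 4 became 0 without the Grifin-high arrays and 0 with the covariates, and 0 to 31 without single arrays. Related genes called lower went from 0 to 2 after quantile normalisation and 0 to 3 without single arrays. The share of higher calls between genotypes, 61.0%, was 50.6% after quantile normalisation, 70.3% after median centring, and 50.6% to 67.4% without single arrays (mutant 2-month replicates 3 and 2). With the replicate block, probe sets past the F test in normal retinas went from 9 to 5 and those past the interaction from 4 to 0, related genes called lower from 0 to 1, and no call of a member changed. The 3 of 12 same-numbered pairings above 0.1 were all at 2 months (0.33, 0.66 and 0.25). Each call rests on 3 arrays per group, whose number limits the precision.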

Other observations

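In mutant 3-month replicate 3, the array in which Icam1 and Cd48 stood highest, the named probe sets farthest from their group mean were looked up after the data had been seen. Glycam1, the L-selectin ligand, was above its group mean by 0.80 log2 units, beside 0.79 for Icam1 and 0.68 for Cd48. Junb, a transcription factor of the AP-1 family, was above it by 0.63, the heparanase gene Hpse by 0.58 and the Wnt receptor gene Fzd7 by 0.55. On the low side, the endosomal GTPase gene Rab7 deviated by -0.89, the mitochondrial translation factor gene Mtif2 by -0.59, the interleukin gene Il15 by -0.58 and the fucosyltransferase gene Fut10 by -0.58. These are values of 1 array, with no test.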
